A study of Mus musculus with 2 samples.

Results

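The comparison described here is that of XY gonadal somatic cells after 72 h of culture with an inhibitor of the kinases MEK1 and MEK2 (MEKi, PD0325901, 500 nM) with XY somatic cells cultured for 72 h with the solvent DMSO. Its members were chosen by the library labels alone and are 8 of the 40 somatic libraries of the study. They are MEKi M2, M3, M4 and M5 and DMSO M2, M4, M5 and M6, all from library set 4. The gonads came from E12.5 embryos of males carrying the Oct4-eGFP transgene, on a 129T2svJ background, and Swiss females, and were otherwise wild type. Oct4-eGFP marks germ cells, and the GFP-negative cells sorted after culture were taken as the somatic fraction. Several gonads were pooled for a sample, and the mesonephros was removed after culture. The same inhibitor was used for 24 h (3 libraries, with 4 DMSO libraries, set 3), and the FGF receptor inhibitor BGJ398 (FGFRi, 500 nM) and XX cells in DMSO were cultured for 72 h in set 4 (4 libraries each). The question of the comparison is how XY somatic cells differ when the kinase cascade below FGF and other receptors is blocked.

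Receptor tyrosine kinases, among them the FGF, PDGF, VEGF and CSF1 receptors, activate RAS, RAF, MEK and then the ERK kinases. ERK induces immediate-early genes within minutes, and it also induces its own inhibitors (the DUSP phosphatases and the Sprouty and SPRED proteins), whose mRNA levels are widely used as a readout of ERK activity. In the foetal testis, Sertoli cells express *Sox9* and surround the germ cells in cords, *Fgf9* is a Sertoli cell growth factor, foetal Leydig cells in the interstitium make androgens, and an endothelium with a coelomic artery grows into the organ with its pericytes and macrophages.

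Transcripts were counted by 3′ RNA-seq with molecular identifiers and are given as CPM on TMM-scaled library sizes. Total counts were between 1902066 and 3167747 per library (exact two-sided permutation test between the groups, p = 0.6, the smallest possible p being 0.0286). Gonadal transcription factors were present in all 8 libraries: *Nr5a1* was at 109 to 143 CPM in DMSO and 135 to 161 CPM in MEKi, and *Gata4* at 81.1 to 100 and 76.4 to 91.6 CPM. *Ddx3y*, on the Y chromosome, was at 67.1 to 109 and 61.7 to 79.7 CPM and *Xist* at no more than 2.33 CPM in any library. The germ cell marker *Ddx4* stayed at or below 4.48 CPM. DMSO M6 stood apart from the other DMSO libraries in genes of blood and vessels: summed over the 14 erythroid genes tested it had 357 CPM, against 952 to 1764 CPM in the other 3, and the 4 MEKi libraries had 268 to 876 CPM. DMSO M6 was also the lowest DMSO library over the 23 Sertoli cell products tested, at 2471 CPM against 2959 to 4192 CPM. Counts of the vessel, macrophage and Sertoli lists are therefore also given without DMSO M6, and the part of blood cells in them was not tested.

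Of 15390 genes tested, 992 (6.45%) were differentially expressed genes (DEGs), which had an FDR below 0.05 and changed by 1.5-fold or more, so that a call can be lost by either rule. FDRs are from the quasi-likelihood F test of edgeR, adjusted by Benjamini-Hochberg over the 15390 genes. The labels do not say that the libraries of a group are separate cultures, so the FDR measures the spread between these pooled libraries. With MEKi, 345 genes rose (2.24% of those tested) and 647 fell (4.2%). The 4 MEKi and the 4 DMSO libraries did not overlap for 785 of the 992 DEGs, and for 2608 (16.9%) of all genes tested. Values below are in the order M2, M4, M5 and M6 for DMSO and M2, M3, M4 and M5 for MEKi, and log2 fold changes are MEKi minus DMSO. In bulk libraries, fewer cells of a type and less RNA per cell cannot be told apart. Some lists share genes, and a gene such as *Etv5* is counted in each list that holds it.

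Genes that ERK induces and that feed back on it were lower with MEKi. Of 22 ERK feedback and ERK-induced genes tested, 14 fell and 0 rose, with a median log2 fold change of −0.92 against 0.0036 over all genes tested, and 15 were lower in every MEKi library than in any DMSO library (8.05% of all genes tested were). *Spry4* (ENSMUSG00000024427.7, chromosome 18 of GRCm39 from 38719300 to 38736025), a Sprouty inhibitor of receptor tyrosine kinase signalling, was at 22.3, 20.9, 18.4 and 17.5 CPM in DMSO and 1.42, 1.53, 2.50 and 2.15 CPM in MEKi (log2 fold change −3.33, standard error 0.36, edgeR FDR 2.26e-09). Every MEKi library was several-fold below the lowest DMSO library. *Dusp6* (ENSMUSG00000019960.8, chromosome 10 of GRCm39 from 99086564 to 99103361), the cytoplasmic phosphatase that inactivates ERK, was at 75.8, 120.4, 93.6 and 81.0 CPM in DMSO and 10.4, 26.4, 24.1 and 19.9 CPM in MEKi (log2 fold change −2.16, standard error 0.21, edgeR FDR 2.57e-10). *Etv5* (ENSMUSG00000013089.15, chromosome 16 of GRCm39 from 22200052 to 22259662), a transcription factor of the ETS family that acts below FGF signalling, was at 28.9, 34.3, 38.8 and 40.3 CPM in DMSO and 9.02, 9.56, 9.39 and 4.30 CPM in MEKi (log2 fold change −2.08, standard error 0.23, edgeR FDR 3.47e-09). Neither gene overlapped between the groups, and MEKi M5 had the lowest *Etv5*.

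The other Sprouty genes fell too. *Spry1* was at 23.9, 26.4, 18.4 and 26.1 CPM in DMSO and 8.07, 3.82, 4.07 and 2.15 CPM in MEKi (log2 fold change −2.38, standard error 0.32, edgeR FDR 5.34e-07), and *Spry2* had a log2 fold change of −1.53 (edgeR FDR 0.000148). All 3 Sprouty genes were lower in every MEKi library than in any DMSO library. Among the phosphatases, *Dusp4*, which acts in the nucleus, fell from 5.32, 2.98, 5.98 and 5.68 CPM in DMSO to 0.475, 1.15, 1.25 and 1.07 CPM in MEKi (log2 fold change −2.24, standard error 0.53, edgeR FDR 0.00333). *Dusp2* and *Dusp7* also passed the test (log2 fold changes −2.66 and −0.90), but the call of *Dusp2* was lost without DMSO M4 (log2 fold change −2.20, edgeR FDR 0.0666) and that of *Dusp7* without MEKi M4 or DMSO M6 (log2 fold change −0.74 to −0.71, edgeR FDR 0.0823). *Spred1* and *Spred2*, which hold back RAS with neurofibromin, had smaller log2 fold changes of −0.93 (edgeR FDR 8.96e-05) and −0.94 (edgeR FDR 0.00263). Neither overlapped between the groups. *Etv4*, the close relative of *Etv5*, was at 4.65, 6.96, 4.48 and 1.42 CPM in DMSO and 0.949, 0.765, 0.939 and 1.07 CPM in MEKi (log2 fold change −2.19, standard error 0.52, edgeR FDR 0.00341). DMSO M6 was the lowest of the DMSO libraries and was still above all MEKi libraries. *Ccnd1*, which encodes the G1 cyclin D1, was at 79.1, 85.0, 176 and 87.2 CPM in DMSO and 52.2, 40.9, 27.2 and 32.8 CPM in MEKi (log2 fold change −1.48, standard error 0.27, edgeR FDR 0.00012). DMSO M5 was the highest by far, and the groups did not overlap. *Dusp1*, which stress kinases also induce, did not pass the test (log2 fold change −0.34, edgeR FDR 0.245).

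**Figure D1:**
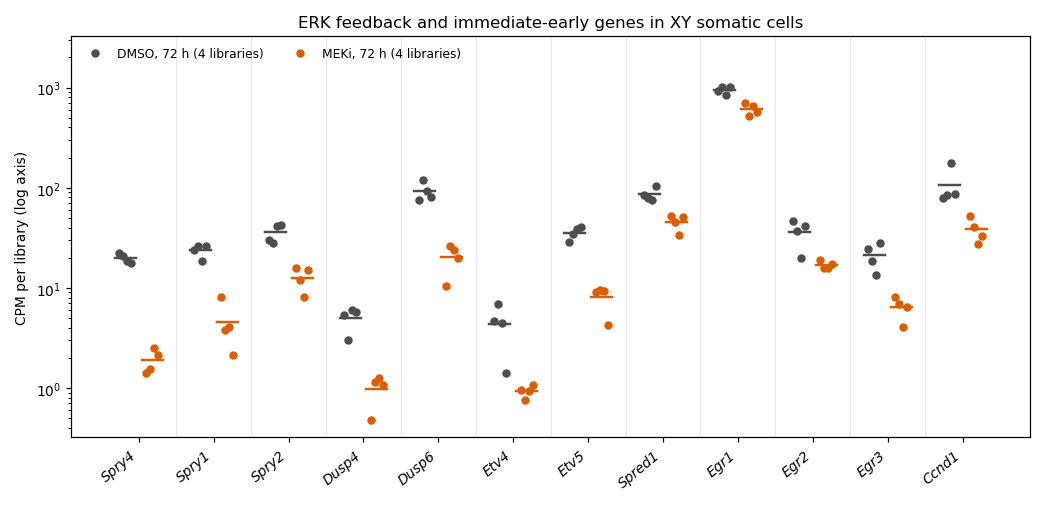
CPM in each of the 4 DMSO and 4 MEKi libraries (72 h, log axis) for 8 ERK feedback genes, 3 *Egr* genes and *Ccnd1*, with a point per library and a line at the mean of a group. The groups do not overlap for any of the 12 genes, and the gap is widest for *Spry4*, at 1.42 to 2.50 CPM with MEKi against 17.5 to 22.3 CPM with DMSO.

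Among immediate-early genes, the decreases included 4 genes of the *Egr* family. Of 29 members tested, 7 fell and 0 rose (median −0.47), and without MEKi M3 the number that fell was 4. *Egr1*, the zinc finger factor that is a direct target of ERK signalling, was at 925, 1009, 848 and 1010.0 CPM in DMSO and 698, 519, 657 and 575 CPM in MEKi (log2 fold change −0.63, standard error 0.14, edgeR FDR 0.00173). The groups did not overlap, although the fold change was just above the 1.5-fold limit. The call of *Egr1* was lost without MEKi M3 (log2 fold change −0.56, edgeR FDR 0.0134). *Egr2* was at 46.2, 36.8, 19.9 and 41.2 CPM in DMSO and 19.0, 15.7, 15.7 and 17.2 CPM in MEKi (log2 fold change −1.12, standard error 0.27, edgeR FDR 0.00364). DMSO M5 was close to the MEKi libraries. *Egr3* was at 24.6, 18.4, 13.4 and 28.0 CPM in DMSO and 8.07, 6.88, 4.07 and 6.45 CPM in MEKi (log2 fold change −1.76, standard error 0.33, edgeR FDR 0.000184). *Ccn2*, a matricellular protein gene, fell by 0.89 on the log2 scale (edgeR FDR 0.0058), with DMSO M5 inside the range of the MEKi libraries. *Srf*, the serum response factor that carries ERK and actin signals to immediate-early promoters, was at 14.0, 13.9, 9.96 and 13.3 CPM in DMSO and 12.8, 5.73, 3.76 and 3.76 CPM in MEKi (log2 fold change −1.0, standard error 0.35, edgeR FDR 0.0498). MEKi M2 lay inside the range of DMSO. The call of *Srf* was lost without MEKi M3, MEKi M4, MEKi M5, DMSO M2, DMSO M4 or DMSO M6 (log2 fold change −0.99 to −0.79, edgeR FDR 0.0828 to 0.189). *Fos*, the AP-1 subunit, was at 1060.0, 1344, 666 and 1235 CPM in DMSO and 741, 561, 1085 and 676 CPM in MEKi, with overlap, and did not pass the test (log2 fold change −0.49, edgeR FDR 0.0992).

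ERK reaches many of these genes through ETS factors and serum response factor, which binds the CArG box, so the promoters of those DEGs that hold such a motif are shown. Of the 26 DEGs in the ERK feedback, immediate-early and contractile lists, 16 had an entry in RefSeq's promoter table (GRCm38.p6), and 4 of them held the ETS motif CCGGAAG, the AP-1 motif TGANTCA or the CArG box on either strand in the 250 bases before the start. In lower case below are those 250 bases, 5′ to 3′ on the strand of the gene, with the motifs in capitals, and the positions on GRCm39 come from an exact match of the sequence to that build.
*Dusp5*, chr19:53517326-53517575, plus strand: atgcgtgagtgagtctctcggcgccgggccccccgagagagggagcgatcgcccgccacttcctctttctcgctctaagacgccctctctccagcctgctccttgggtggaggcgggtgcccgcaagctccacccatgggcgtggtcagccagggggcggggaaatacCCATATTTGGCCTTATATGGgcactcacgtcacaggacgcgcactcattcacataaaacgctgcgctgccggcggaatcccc
*Egr2*, chr10:67373449-67373698, plus strand: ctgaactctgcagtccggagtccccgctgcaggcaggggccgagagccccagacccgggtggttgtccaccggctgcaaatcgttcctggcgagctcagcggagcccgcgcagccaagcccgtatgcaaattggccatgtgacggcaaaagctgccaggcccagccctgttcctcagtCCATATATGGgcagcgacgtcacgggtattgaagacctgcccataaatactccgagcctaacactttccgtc
*Srf*, chr17:46867089-46867338, minus strand: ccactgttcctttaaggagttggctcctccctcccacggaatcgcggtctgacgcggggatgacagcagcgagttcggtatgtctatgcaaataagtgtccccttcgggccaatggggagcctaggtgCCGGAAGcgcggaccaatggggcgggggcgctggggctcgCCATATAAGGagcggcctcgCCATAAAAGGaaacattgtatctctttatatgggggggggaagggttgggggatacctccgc
*Myl9*, chr2:156617134-156617383, plus strand: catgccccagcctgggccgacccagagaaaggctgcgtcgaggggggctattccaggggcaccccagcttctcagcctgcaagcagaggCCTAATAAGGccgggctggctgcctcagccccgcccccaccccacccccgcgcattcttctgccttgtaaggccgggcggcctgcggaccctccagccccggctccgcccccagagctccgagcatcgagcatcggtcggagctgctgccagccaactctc
The capitals in *Dusp5* are adjoining CArG boxes that begin 82 and 72 bases before the start, and *Egr2* has a CArG box 72 bases before it. In *Srf* the capitals are an ETS motif 122 bases and CArG boxes 82 and 62 bases before the start, and in *Myl9* a CArG box 161 bases before it. *Dusp5* (log2 fold change −0.81), *Egr2* and *Srf* fell with MEKi and *Myl9* rose, so boxes of the CArG pattern, with different letters inside, stood before genes that moved in opposite directions. The call of *Dusp5* was lost without MEKi M3, MEKi M4 or DMSO M2 (log2 fold change −0.79 to −0.64, edgeR FDR 0.058 to 0.141). In windows from 250 bases before to 50 after the start, counted by gene because one gene can have several overlapping windows, the CArG box was in 1.63% of the 10286 tested genes with an entry. It was in 3 of 22 genes of the immediate-early list (13.6%), in 3 of 18 of the contractile list (16.7%) and in 1 of 16 of the ERK feedback list (6.25%). The ETS motif was in 19.5% and the AP-1 motif in 5.83% of the tested genes with an entry, and each was in 0 of those 16. A match describes the letters only, and binding was not measured.

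The genes for the MEK kinases were not DEGs. Of 24 components of the RAS to ERK cascade tested, 2 fell (8.33%, against 4.2% of all genes tested) and 0 rose. *Map2k1*, which encodes MEK1, a target of the inhibitor, was at 40.9, 44.8, 24.4 and 32.2 CPM in DMSO and 37.5, 35.9, 46.0 and 44.6 CPM in MEKi (log2 fold change 0.20, edgeR FDR 0.538). *Map2k2*, which encodes MEK2, was at 143, 159, 152 and 155 CPM in DMSO and 169.9, 178, 165 and 175 CPM in MEKi (log2 fold change 0.18, edgeR FDR 0.259). The members that fell were *Rps6ka1*, which encodes the ERK-activated kinase RSK1 (log2 fold change −0.86, edgeR FDR 0.00196), and *Nf1*, which encodes the RAS inhibitor neurofibromin. *Nf1* was at 74.8, 61.2, 67.2 and 86.2 CPM in DMSO and 35.6, 43.2, 32.2 and 49.4 CPM in MEKi (log2 fold change −0.87, standard error 0.18, edgeR FDR 0.000606). The groups did not overlap.

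Receptors and ligands of the pathway were called in both directions. Of 31 receptor tyrosine kinases tested, 6 fell and 1 rose. Those that fell include *Erbb3*, a neuregulin receptor (log2 fold change −0.97, edgeR FDR 0.0422), and *Flt1*, *Kdr* and *Tie1* of endothelium, *Pdgfrb* of pericytes and mesenchyme and *Csf1r* of macrophages, which are described with those cells. The call of *Erbb3* was lost without MEKi M2, MEKi M3, MEKi M5, DMSO M2, DMSO M4 or DMSO M5 (log2 fold change −1.04 to −0.81, edgeR FDR 0.0537 to 0.123). *Ntrk2*, the BDNF receptor, rose from 16.6, 19.4, 7.97 and 10.4 CPM in DMSO to 34.2, 37.1, 32.2 and 31.2 CPM in MEKi (log2 fold change 1.29, standard error 0.32, edgeR FDR 0.00525). All MEKi libraries were above all DMSO libraries. Of 33 growth factor ligands, 2 rose and 2 fell (6.06% each, against 2.24% and 4.2% of all genes tested). *Angpt2*, a ligand of the endothelial receptor TIE2, rose from 60.2, 45.3, 61.2 and 45.5 CPM in DMSO to 71.7, 110.5, 139 and 113 CPM in MEKi (log2 fold change 1.03, standard error 0.19, edgeR FDR 0.000122), and *Pdgfd*, a ligand of PDGFRB, by 0.79 on the log2 scale (edgeR FDR 0.0052). *Pdgfb*, the ligand with which endothelium recruits pericytes, fell from 9.64, 11.4, 12.4 and 4.26 CPM in DMSO to 5.70, 2.29, 1.25 and 2.69 CPM in MEKi (log2 fold change −1.72, standard error 0.38, edgeR FDR 0.00167). DMSO M6 lay within the MEKi range. *Fgf9* was at 15.3, 20.9, 15.9 and 25.6 CPM in DMSO and 28.5, 15.3, 17.2 and 20.9 CPM in MEKi (log2 fold change 0.07, edgeR FDR 0.888). The groups overlapped.

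In the fit of all 39 libraries, endothelial genes had the lowest median of the 42 lists. Of 41 pan-endothelial genes tested, 26 fell and 0 rose, with a median log2 fold change of −2.57. The number that fell was 22 to 25 with each library left out in turn, 25 without DMSO M6, and 16 of 24 tested when only the 8 libraries were fitted, and 1 rose without DMSO M6. The median depended on which members passed the low-count filter. It was −1.21 in the fit of the 8 libraries, where the pericyte genes also had −1.21. In the fit of the 12 XY libraries of 72 h it was −2.70 over 30 tested. *Gpihbp1* (ENSMUSG00000022579.10, chromosome 15 of GRCm39 from 75468474 to 75471331), which anchors lipoprotein lipase to capillary endothelium, had counts of 73, 49, 58 and 19 in the DMSO libraries and 0, 1, 0 and 1 in the MEKi libraries, a ratio of 106 with a 95% counting interval of 29.1 to 885 (edgeR FDR 3.24e-10). *Cd93*, an endothelial adhesion receptor, was at 29.6, 29.3, 58.3 and 20.8 CPM in DMSO and 0.475, 1.15, 1.88 and 0.537 CPM in MEKi (log2 fold change −4.87, standard error 0.48, edgeR FDR 2.57e-10). For both genes DMSO M6 was the lowest DMSO library and was still well above the MEKi libraries.

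Receptors, junction genes and transcription factors of endothelium were among those that fell. *Flt1*, which encodes VEGF receptor 1, was at 7.98, 13.9, 12.9 and 8.05 CPM in DMSO and 0.949, 0.382, 0.626 and 1.61 CPM in MEKi (log2 fold change −3.60, standard error 0.56, edgeR FDR 7.83e-06). *Tie1* had 71 counts over the DMSO libraries and 1 over the MEKi libraries, a ratio of 76.0 (95% counting interval 13.2 to 3040.0, edgeR FDR 3.37e-07). *Kdr*, which encodes VEGF receptor 2, fell less, from 26.9, 28.3, 21.4 and 15.6 CPM in DMSO to 19.0, 14.1, 10.3 and 6.98 CPM in MEKi (log2 fold change −0.88, standard error 0.23, edgeR FDR 0.0094), with overlap. The call of *Kdr* was lost without DMSO M2 (log2 fold change −0.79, edgeR FDR 0.0518). *Pecam1* and *Cdh5* encode adhesion proteins of the endothelial junction. *Pecam1* was at 9.97, 16.4, 12 and 5.68 CPM in DMSO and 1.90, 1.91, 0.939 and 1.61 CPM in MEKi (log2 fold change −2.78, standard error 0.39, edgeR FDR 1.29e-06). *Cdh5* was at 24.9, 21.9, 32.4 and 15.6 CPM in DMSO and 7.59, 9.56, 7.83 and 12.4 CPM in MEKi (log2 fold change −1.37, standard error 0.30, edgeR FDR 0.00181), both without overlap. *Fabp4*, a fatty acid binding protein gene of capillaries, had a log2 fold change of −4.46 (edgeR FDR 3.84e-08). The transcription factor genes *Fli1* (log2 fold change −2.73, edgeR FDR 2.81e-06), *Sox7* (ratio 30.5, counting interval 8.06 to 258) and *Ets1* (log2 fold change −1.03, edgeR FDR 0.000135) fell. *Myct1* had 40 counts over the DMSO libraries and 0 over the MEKi libraries, which is at least 14.3-fold lower at a limit of 3 counts over the group, and with it at this bound the median of the list was unchanged at −2.57.

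Some endothelial genes did not pass the test. *Tek*, which encodes TIE2, was at 1.66, 3.48, 3.98 and 1.42 CPM in DMSO and 0.475, 1.15, 2.82 and 3.76 CPM in MEKi (log2 fold change −0.32, edgeR FDR 0.77). *Emcn*, a surface sialomucin of capillaries and veins, was at 9.31, 16.4, 13.4 and 8.53 CPM in DMSO and 11.4, 9.56, 6.57 and 4.83 CPM in MEKi (log2 fold change −0.54, edgeR FDR 0.27). *Cd34*, which interstitial cells also express, was at 60.8, 63.7, 54.3 and 42.2 CPM in DMSO and 65.0, 60.4, 84.5 and 77.9 CPM in MEKi (log2 fold change 0.38, edgeR FDR 0.129). The groups overlapped for each of these 3 genes. Of 17 arterial and Notch genes tested, 8 fell and 0 rose, and 8 fell without DMSO M6. *Notch1* was at 62.2, 52.2, 48.3 and 41.7 CPM in DMSO and 22.3, 21.0, 22.2 and 22.0 CPM in MEKi (log2 fold change −1.23, standard error 0.16, edgeR FDR 2.58e-07). *Heyl*, a Notch target, was at 97.1, 79.1, 72.2 and 58.3 CPM in DMSO and 29.4, 23.7, 31.3 and 30.6 CPM in MEKi (log2 fold change −1.42, standard error 0.20, edgeR FDR 1.04e-06), and *Unc5b*, a netrin receptor of arterial endothelium, fell by 1.57 on the log2 scale (edgeR FDR 1.36e-07), all without overlap. Of 11 venous and lymphatic genes tested, 3 fell (3 without DMSO M6), among them the apelin receptor gene *Aplnr*, from 15.3, 26.4, 13.9 and 16.1 CPM in DMSO to 0.475, 1.53, 2.82 and 0 CPM in MEKi (log2 fold change −3.61, standard error 0.47, edgeR FDR 2.1e-07), and 2 rose, *Pdpn* (log2 fold change 0.97, edgeR FDR 1.1e-05) and *Vcam1* (log2 fold change 0.96, edgeR FDR 0.000426), which other cells of the gonad express too.

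The pericyte genes that passed the test fell, except renin. Of 14 pericyte genes tested, 9 fell and 1 rose (median −1.28), with the same number that fell without DMSO M6. *Rgs5*, a regulator of G protein signalling that marks pericytes, was at 17.6, 12.4, 16.4 and 12.8 CPM in DMSO and 1.90, 0.382, 0.939 and 0.537 CPM in MEKi (log2 fold change −3.94, standard error 0.42, edgeR FDR 1.15e-09). *Abcc9*, a subunit of the vascular potassium channel, was at 34.6, 34.3, 20.9 and 22.3 CPM in DMSO and 0.475, 3.82, 3.13 and 2.69 CPM in MEKi (log2 fold change −3.40, standard error 0.37, edgeR FDR 2.26e-09), and *Kcnj8*, the pore of that channel, fell by 1.48 on the log2 scale (edgeR FDR 0.000396), with DMSO M6 inside the MEKi range. *Pdgfrb* was at 148, 163, 160.3 and 119 CPM in DMSO and 54.6, 54.3, 58.5 and 60.2 CPM in MEKi (log2 fold change −1.37, standard error 0.17, edgeR FDR 1.13e-07). The MEKi libraries lay within a narrow range. *Ndufa4l2*, a mitochondrial subunit gene rich in pericytes, had 43 counts over the DMSO libraries and 0 over the MEKi libraries, at least 15.3-fold lower. *Notch3* did not pass the 1.5-fold rule or the test (log2 fold change −0.45, edgeR FDR 0.102), although the groups did not overlap.

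*Ren1* (ENSMUSG00000070645.5, chromosome 1 of GRCm39 from 133278248 to 133288063), which encodes renin, the first enzyme of the angiotensin cascade and a product of some perivascular cells, had the largest increase among DEGs that averaged 5 CPM or more and did not overlap. It was at 5.32, 2.49, 7.97 and 4.74 CPM in DMSO and 59.8, 34.0, 36.0 and 24.2 CPM in MEKi (log2 fold change 2.89, standard error 0.38, edgeR FDR 2.04e-07). The lowest MEKi library was several-fold above the highest DMSO library. In the renin-angiotensin and vascular tone list, 1 of 17 genes tested rose (*Ren1*) and 3 fell. Among those that fell, *Npr1* and *Gucy1b1*, of cyclic GMP signalling, had log2 fold changes of −0.77 (edgeR FDR 0.000161) and −0.78 (edgeR FDR 0.00772).

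The contractile genes that passed the test rose. Of 22 smooth muscle contractile genes tested, 5 rose and 0 fell, 20 had a positive log2 fold change (median 0.47) and 11 were higher in every MEKi library than in any DMSO library (8.9% of all genes tested were). When only the 8 libraries were fitted, 8 rose, and 4 rose without MEKi M4 or DMSO M6. *Acta2*, smooth muscle actin, was at 416, 388, 346 and 454 CPM in DMSO and 791, 753, 829.7 and 829 CPM in MEKi (log2 fold change 1.0, standard error 0.12, edgeR FDR 3.19e-08). *Myocd*, the coactivator that switches on smooth muscle genes with serum response factor, was at 17.0, 12.9, 16.4 and 20.8 CPM in DMSO and 29.0, 44.3, 42.9 and 56.4 CPM in MEKi (log2 fold change 1.35, standard error 0.28, edgeR FDR 0.000798). Neither gene overlapped between the groups. *Myh11*, the smooth muscle myosin heavy chain, was at 88.1, 63.2, 54.3 and 70.1 CPM in DMSO and 111, 115, 187 and 167 CPM in MEKi (log2 fold change 1.06, standard error 0.18, edgeR FDR 5.4e-05), and *Myl9*, a regulatory myosin light chain, rose by 0.89 on the log2 scale (edgeR FDR 1.12e-08). *Tagln*, a usual partner of *Acta2*, did not pass the test (log2 fold change 0.29, edgeR FDR 0.32). Of 15 striated muscle sarcomere genes tested, 5 rose and 0 fell (3 rose without MEKi M2). *Tnnt2*, cardiac troponin T, was at 5.98, 4.97, 7.47 and 9.0 CPM in DMSO and 29.4, 26.0, 34.8 and 29.0 CPM in MEKi (log2 fold change 2.12, standard error 0.28, edgeR FDR 2.04e-07). *Myh8*, perinatal skeletal myosin, was at 4.99, 6.47, 6.97 and 7.58 CPM in DMSO and 30.9, 29.4, 32.9 and 20.9 CPM in MEKi (log2 fold change 2.16, standard error 0.33, edgeR FDR 5.23e-06), again with no overlap.

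**Figure D2:**
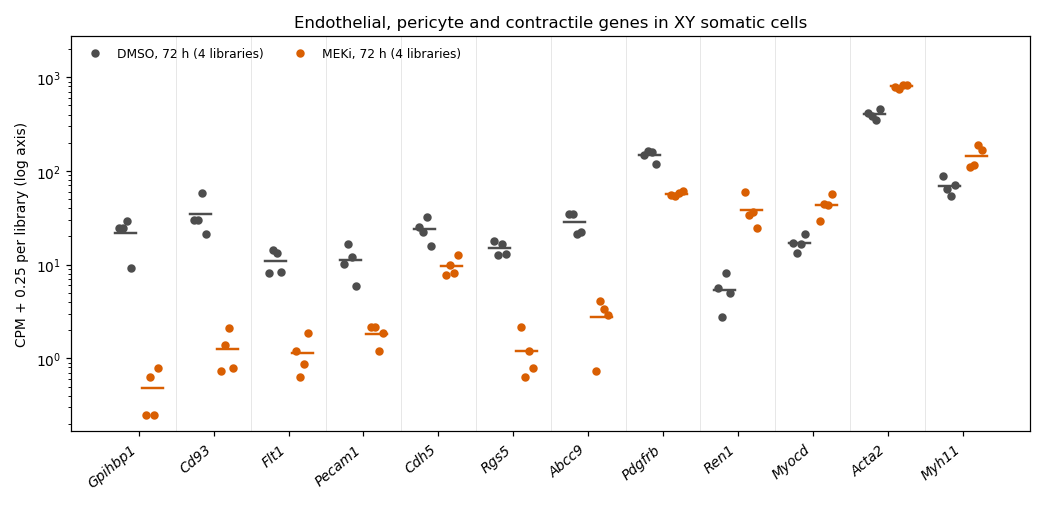
CPM plus an offset of 0.25 in each of the 4 DMSO and 4 MEKi libraries (72 h, log axis) for endothelial genes (left), pericyte genes with *Ren1* (middle) and contractile genes (right), with a point per library and a line at the mean of a group. *Gpihbp1* is at 0 to 0.537 CPM with MEKi against 9.0 to 28.9 CPM with DMSO, and *Ren1* at 24.2 to 59.8 against 2.49 to 7.97 CPM.

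Sertoli cell genes that passed the test mostly fell. Of 9 Sertoli cell transcription factor genes tested, 4 fell and 1 rose, and without MEKi M2, MEKi M3 or DMSO M5 2 fell, and without DMSO M6 4 fell. *Sox9*, which directs Sertoli cell fate, was at 253, 358, 374 and 288 CPM in DMSO and 187, 203, 228 and 214 CPM in MEKi (log2 fold change −0.61, standard error 0.19, edgeR FDR 0.0247). All MEKi libraries were below all DMSO libraries. The call of *Sox9* was lost without MEKi M2, MEKi M3, DMSO M4 or DMSO M5 (log2 fold change −0.60 to −0.52, edgeR FDR 0.0547 to 0.0813). *Dmrt1*, which keeps Sertoli cells male, was at 14.6, 14.4, 14.9 and 12.8 CPM in DMSO and 4.27, 4.21, 8.14 and 6.45 CPM in MEKi (log2 fold change −1.27, standard error 0.32, edgeR FDR 0.00573). *Sox8* was at 23.3, 17.4, 27.9 and 18.9 CPM in DMSO and 8.54, 8.79, 15.0 and 10.7 CPM in MEKi (log2 fold change −1.0, standard error 0.31, edgeR FDR 0.028). The call of *Sox8* was lost without MEKi M2, MEKi M3, MEKi M5, DMSO M2 or DMSO M5 (log2 fold change −0.99 to −0.87, edgeR FDR 0.0518 to 0.0855). The fourth member that fell is *Etv5*, described above, and the one that rose is *Nr0b1*, which encodes the nuclear receptor DAX1 (log2 fold change 0.92, edgeR FDR 0.00503), where MEKi M3 lay within the DMSO range.

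Of 23 Sertoli cell products tested, 9 fell and 1 rose (median −0.58), and without DMSO M6 11 fell. Summed over the list the DMSO libraries had 2959, 3993, 4192 and 2471 CPM and the MEKi libraries 2177, 2221, 2955 and 2316 CPM. DMSO M6 thus lay within the MEKi range. *Col9a3*, a collagen IX chain of Sertoli cells, had the largest decrease among them, from 109, 165, 154 and 78.6 CPM in DMSO to 25.6, 32.5, 35.1 and 29.5 CPM in MEKi (log2 fold change −2.02, standard error 0.24, edgeR FDR 1.72e-08). *Cst9*, a cystatin of Sertoli cells, was at 347, 443, 485 and 201 CPM in DMSO and 101, 125, 211 and 197 CPM in MEKi (log2 fold change −1.22, standard error 0.21, edgeR FDR 8.64e-05). Here DMSO M6 was below the highest MEKi library. *Gdnf*, the growth factor for germline stem cells, fell from 25.6, 18.9, 17.4 and 18.0 CPM in DMSO to 7.12, 6.50, 6.89 and 6.45 CPM in MEKi (log2 fold change −1.57, standard error 0.27, edgeR FDR 6.87e-05). The MEKi libraries formed a tight group below all DMSO libraries. *Inhbb*, the inhibin and activin beta B subunit, was at 81.8, 81.6, 99.1 and 67.7 CPM in DMSO and 32.7, 34.8, 43.8 and 32.2 CPM in MEKi (log2 fold change −1.18, standard error 0.21, edgeR FDR 7.6e-05). *Tesc*, a calcium-binding protein gene, was at 43.2, 46.3, 55.3 and 32.7 CPM in DMSO and 8.07, 17.2, 21.3 and 13.4 CPM in MEKi (log2 fold change −1.51, standard error 0.28, edgeR FDR 0.000144). Neither overlapped between the groups. *Amh*, anti-Müllerian hormone, was low in all libraries, at 4.32, 4.97, 4.48 and 0.474 CPM in DMSO and 1.42, 0, 1.25 and 1.07 CPM in MEKi (log2 fold change −1.90, standard error 0.66, edgeR FDR 0.0494). The call of *Amh* was lost without MEKi M2, MEKi M3, MEKi M4, MEKi M5, DMSO M2, DMSO M4 or DMSO M5 (log2 fold change −2.15 to −1.48, edgeR FDR 0.0612 to 0.163). The paper reports robust antibody staining of the AMH protein in XY gonads with DMSO and with MEKi. The low counts of *Amh* are therefore not a measure of how much AMH Sertoli cells made. How well the assay captures this transcript was not tested. *Sostdc1*, a secreted BMP and WNT antagonist, was the member that rose (log2 fold change 0.59, edgeR FDR 0.00986). The call of *Sostdc1* was lost without MEKi M3, DMSO M2 or DMSO M5 (log2 fold change 0.50 to 0.57, edgeR FDR 0.031 to 0.0708).

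The early gonad transcription factors gave no call: 0 of 12 passed the edgeR test (4 had an unadjusted p under 0.05, and DESeq2 called 0), with log2 fold changes from −0.45 to 0.36. *Wt1* was at 244, 261, 249 and 218 CPM in DMSO and 212, 198, 217 and 180.5 CPM in MEKi (log2 fold change −0.27, edgeR FDR 0.0929) and *Nr5a1* had a log2 fold change of 0.25 (edgeR FDR 0.0999). Of 20 pre-granulosa cell genes, 0 rose and 3 fell. The number that rose was 1 without MEKi M3, MEKi M4 or DMSO M2 and 3 without DMSO M6, and the number that fell was 1 without MEKi M3, MEKi M4 or DMSO M2. *Lgr5*, the R-spondin receptor, was the member with the largest decrease, from 8.31, 15.9, 13.4 and 5.21 CPM in DMSO to 0, 0, 2.82 and 0 CPM in MEKi (log2 fold change −3.46, standard error 0.57, edgeR FDR 2.44e-05). Its count was 0 in 3 of the 4 MEKi libraries. *Foxl2*, the transcription factor of granulosa cells, was at 21.6, 17.9, 18.4 and 13.3 CPM in DMSO and 23.3, 29.8, 23.2 and 32.2 CPM in MEKi (log2 fold change 0.58, edgeR FDR 0.109). *Rspo1*, the WNT enhancer of the ovary, was at 44.9, 36.3, 34.9 and 53.1 CPM in DMSO and 74.0, 60.0, 54.2 and 68.2 CPM in MEKi (log2 fold change 0.58, edgeR FDR 0.00112), just below the 1.5-fold limit. Neither gene overlapped between the groups, and neither was a DEG. *Wnt4* (log2 fold change −0.26, edgeR FDR 0.159), *Fst*, which encodes follistatin (log2 fold change 0.53, edgeR FDR 0.173), and *Bmp2* (log2 fold change 0.32, edgeR FDR 0.265) overlapped and did not pass the test. XX and XY cells with DMSO, which share the XY libraries used here, differed in 3103 genes (20.2%), 1454 of them higher in XX (9.45%) and 1649 lower (10.7%). In XX cells the mean of *Lgr5* was 54.6 ± 5.65 CPM, that of *Sox9* 91.4 ± 15.4 CPM, that of *Col9a3* 11.6 ± 4.86 CPM and that of *Cst9* 14.2 ± 3.74 CPM (SD, n = 4), against means of 0.704 ± 1.41, 208 ± 17.3, 30.7 ± 4.05 and 158 ± 53.8 CPM in XY cells with MEKi.

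In the foetal Leydig steroidogenesis list, the genes that passed the test rose, among them *Vcam1*, given above, which other cells of the gonad express too. Of 19 tested, 7 rose and 0 fell (median 0.33), and summed over the list the MEKi libraries had 2788, 2736, 3326 and 2650.0 CPM against 1797, 1834, 2106 and 1943 CPM in DMSO. *Hsd3b1* (ENSMUSG00000027871.16, chromosome 3 of GRCm39 from 98757367 to 98767116), which makes progesterone and androstenedione, was at 252, 255, 351 and 239.7 CPM in DMSO and 579, 548, 804 and 492 CPM in MEKi (log2 fold change 1.15, standard error 0.17, edgeR FDR 4.46e-06). *Cyp17a1*, the enzyme that commits steroids to androgens, was at 22.9, 24.9, 31.4 and 32.7 CPM in DMSO and 56.5, 51.2, 109 and 48.9 CPM in MEKi (log2 fold change 1.28, standard error 0.27, edgeR FDR 0.000842). *Cyp11a1*, the cholesterol side-chain cleavage enzyme, was at 87.8, 103, 166 and 135 CPM in DMSO and 295, 199, 312 and 229 CPM in MEKi (log2 fold change 1.09, standard error 0.24, edgeR FDR 0.00142). No MEKi library of these 3 genes lay within the DMSO range. *Fdx1*, the electron donor of CYP11A1, rose by 0.74 on the log2 scale (edgeR FDR 0.00158), with MEKi M3 below DMSO M5. *Lhcgr*, the luteinising hormone receptor, rose by 1.06 on the log2 scale (edgeR FDR 0.00682). The call of *Lhcgr* was lost without MEKi M4 (log2 fold change 0.87, edgeR FDR 0.0568). *Star*, which carries cholesterol into mitochondria, was at 31.2, 31.8, 50.8 and 28.4 CPM in DMSO and 42.7, 33.3, 55.7 and 42.4 CPM in MEKi. The groups overlapped (log2 fold change 0.31, edgeR FDR 0.326).

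**Figure D3:**
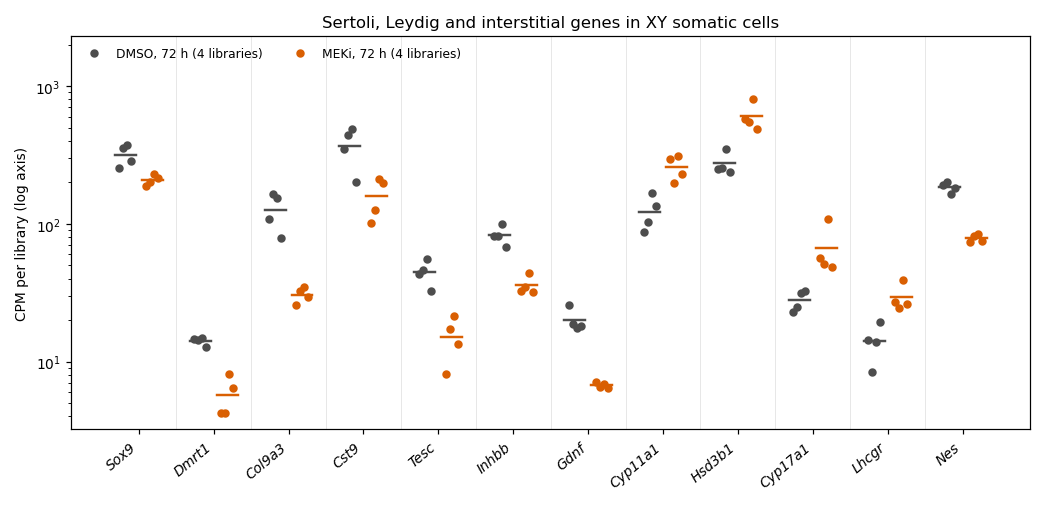
CPM in each of the 4 DMSO and 4 MEKi libraries (72 h, log axis) for Sertoli cell genes (*Sox9* to *Gdnf*), Leydig cell genes (*Cyp11a1* to *Lhcgr*) and the interstitial gene *Nes*, with a point per library and a line at the mean of a group. *Col9a3* is at 25.6 to 35.1 CPM with MEKi against 78.6 to 165 CPM with DMSO, and *Hsd3b1* at 492 to 804 against 239.7 to 351 CPM.

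Interstitial progenitor genes were called in both directions. Of 22 tested, 4 fell and 2 rose (median 0.022), and the number that rose was 0 without MEKi M3 or DMSO M4 and 1 without MEKi M5, DMSO M2 or DMSO M5. *Nes*, an intermediate filament of perivascular progenitors, fell from 192, 201, 165 and 181 CPM in DMSO to 73.6, 82.2, 84.8 and 75.2 CPM in MEKi (log2 fold change −1.22, standard error 0.12, edgeR FDR 3.24e-10), and *Jag1*, a Notch ligand, from 30.9, 30.3, 31.9 and 28.0 CPM in DMSO to 15.7, 16.4, 15.3 and 12.9 CPM in MEKi (log2 fold change −0.99, standard error 0.20, edgeR FDR 0.000548). *Heyl* and *Pdgfrb*, given above, are the others that fell. Among those that rose, *Ogn*, a small proteoglycan of the matrix, went from 26.9, 22.4, 21.4 and 33.2 CPM in DMSO to 29.4, 51.2, 45.1 and 69.3 CPM in MEKi (log2 fold change 0.90, standard error 0.27, edgeR FDR 0.0228). The call of *Ogn* was lost without MEKi M3, MEKi M5, DMSO M2, DMSO M4 or DMSO M5 (log2 fold change 0.69 to 0.91, edgeR FDR 0.0593 to 0.122). *Nr2f2*, the orphan receptor of interstitial cells, was at 701, 703, 803 and 991 CPM in DMSO and 881, 975, 566 and 1042 CPM in MEKi (log2 fold change 0.11, edgeR FDR 0.674). *Pdgfra* was at 359.7, 369, 296 and 386 CPM in DMSO and 324, 359.8, 339.7 and 352 CPM in MEKi (log2 fold change −0.04, edgeR FDR 0.9). In the hedgehog list 1 of 13 genes tested fell (7.69%, against 4.2% of all genes tested) and 0 rose, and 2 fell without DMSO M6. The gene that fell is *Ptch1*, the receptor and target of the ligand. It was at 210.1, 169, 176 and 199 CPM in DMSO and 108, 126, 114 and 121 CPM in MEKi (log2 fold change −0.69, standard error 0.15, edgeR FDR 0.00162). *Dhh*, the Sertoli cell ligand, was at 59.5, 60.2, 61.2 and 36.5 CPM in DMSO and 29.0, 31.7, 41.3 and 35.5 CPM in MEKi (log2 fold change −0.65, edgeR FDR 0.067). DMSO M6 lay inside the MEKi range. *Gli1*, another target, did not pass the test (log2 fold change −0.21, edgeR FDR 0.424).

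Of 19 coelomic epithelium genes tested, 8 rose and 0 fell, and the number that rose was 5 without MEKi M2 and 5 without DMSO M2. *Upk3b*, a uroplakin of mesothelium, was at 101, 122, 115 and 148 CPM in DMSO and 217, 211, 193 and 236 CPM in MEKi (log2 fold change 0.82, standard error 0.14, edgeR FDR 5.72e-05). *Aldh1a2*, which makes retinoic acid, was at 44.5, 47.2, 49.3 and 64.4 CPM in DMSO and 101, 105, 103 and 76.3 CPM in MEKi (log2 fold change 0.92, standard error 0.14, edgeR FDR 9.33e-06), both without overlap. *Krt19* rose by 0.71 on the log2 scale (edgeR FDR 0.00058) and *Krt7* by 0.80 on the log2 scale (edgeR FDR 0.000329). *Krt7* was also the only called member of the duct epithelium list, where 1 of 12 rose (8.33%, against 2.24% of all genes tested) and 0 fell.

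Macrophage genes that passed the test fell. Of 24 tested, 11 fell and 0 rose (median −1.32), 12 fell without DMSO M6, and 7 of the 16 then tested when only the XY libraries of 72 h were fitted. *Csf1r*, the receptor that macrophages need to survive, was at 17.3, 28.3, 12 and 8.53 CPM in DMSO and 4.75, 4.97, 4.70 and 4.30 CPM in MEKi (log2 fold change −1.80, standard error 0.42, edgeR FDR 0.00271). DMSO M6 was the lowest DMSO library. *Cx3cr1*, the fractalkine receptor, was at 13.0, 18.9, 18.4 and 7.58 CPM in DMSO and 2.85, 6.50, 3.44 and 1.61 CPM in MEKi (log2 fold change −1.94, standard error 0.44, edgeR FDR 0.0025). *C1qb*, a complement subunit, was at 20.9, 28.8, 27.9 and 11.4 CPM in DMSO and 10.9, 5.73, 5.32 and 7.52 CPM in MEKi (log2 fold change −1.62, standard error 0.32, edgeR FDR 0.000505). None of these 3 genes overlapped. Of the 24 tested, 9 were lower in every MEKi library than in any DMSO library (8.05% of all genes tested were). Summed over the list the DMSO libraries had 675, 872, 666 and 472 CPM and the MEKi libraries 521, 440, 432 and 457 CPM. DMSO M6 thus lay within the MEKi range. *Mrc1*, the mannose receptor, fell by 3.56 on the log2 scale (edgeR FDR 0.00153). Of 8 neutrophil, mast cell and lymphoid genes 3 fell and 0 rose, and the number that fell was 1 without MEKi M2, MEKi M3, MEKi M4, DMSO M2, DMSO M4 or DMSO M5. Summed over the list the DMSO libraries had 205, 182, 205 and 62.5 CPM and the MEKi libraries 80.7, 64.6, 78.6 and 81.7 CPM, so that DMSO M6 lay below the other DMSO libraries and below all MEKi libraries. Of 14 erythroid genes 1 fell (7.14%, against 4.2% of all genes tested). The number was 0 without MEKi M2, MEKi M3, MEKi M4 or DMSO M2 and 2 without MEKi M5 or DMSO M6. The gene was *Hba-a2*, which went from 303, 143, 221 and 47.4 CPM in DMSO to 27.1, 97.9, 95.8 and 123 CPM in MEKi (log2 fold change −1.07, standard error 0.36, edgeR FDR 0.0443). The call of *Hba-a2* was lost without MEKi M2, MEKi M3, MEKi M4, DMSO M2 or DMSO M5 (log2 fold change −1.14 to −0.68, edgeR FDR 0.0665 to 0.301). DMSO M6 lay within the MEKi range, and reads of *Hba-a2* and its near-identical copy may not be told apart.

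Of 19 germ cell genes tested 1 fell (5.26%, against 4.2% of all genes tested), *Prdm1* (ratio 12.8, 95% counting interval 3.19 to 112), and the summed level was 65.0, 76.1, 67.0 and 53.2 CPM in MEKi and 58.8, 79.1, 64.7 and 48.3 CPM in DMSO. Of 12 meiotic entry genes 0 were called by edgeR or DESeq2 and 0 had an unadjusted p under 0.05, and *Stra8*, which retinoic acid induces in germ cells before meiosis, was at 1.66, 3.98, 2.49 and 2.37 CPM in DMSO and 3.32, 3.06, 1.57 and 2.15 CPM in MEKi (log2 fold change −0.04, edgeR FDR 0.976). Of 19 neural and Schwann cell genes 4 fell and 1 rose. The number that fell was 2 without MEKi M5 or DMSO M5, and the number that rose was 0 without MEKi M4. *Islr2*, a gene of axon guidance, fell from 6.32, 8.95, 15.9 and 8.53 CPM in DMSO to 0, 1.53, 0 and 0 CPM in MEKi (log2 fold change −4.42, standard error 0.66, edgeR FDR 4.14e-06) and *Fabp7*, of glial precursors, fell by 3.02 on the log2 scale (edgeR FDR 0.0012).

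**Figure D4:**
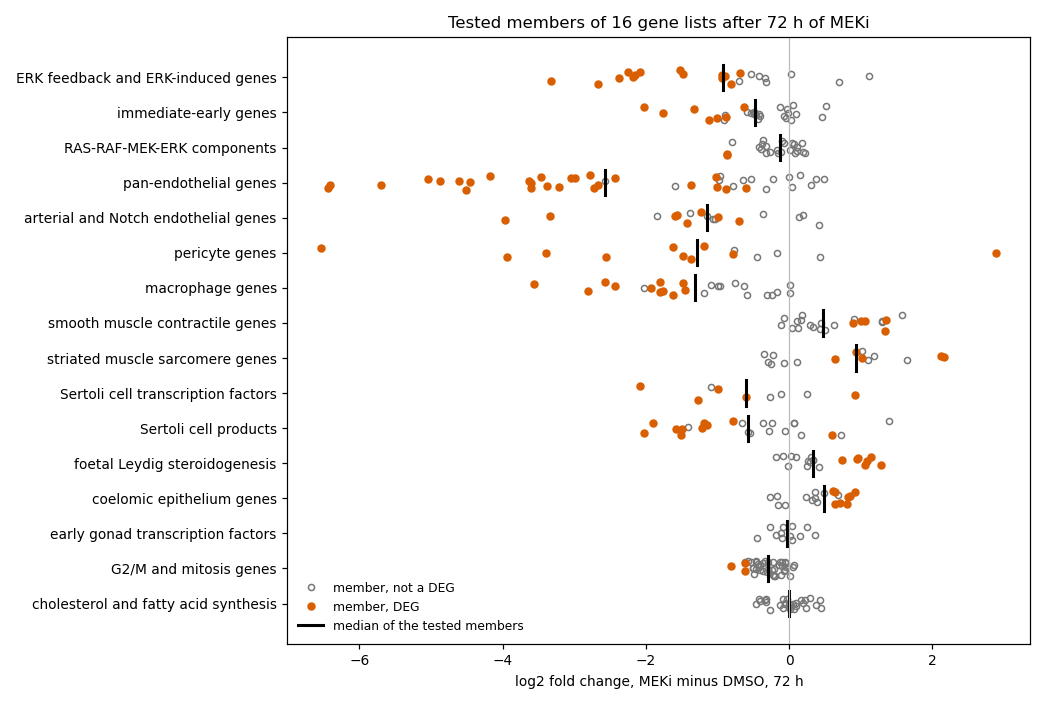
Log2 fold change, MEKi minus DMSO at 72 h, of every tested member of 16 gene lists, with filled points for DEGs and a bar at the median of the list. The medians run from −2.57 (pan-endothelial), −1.32 (macrophage) and −1.28 (pericyte) to 0.33 (Leydig), 0.47 (smooth muscle), 0.49 (coelomic epithelium) and 0.93 (sarcomere).

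Few proliferation genes passed the test, although most of the mitosis genes had log2 fold changes below 0. Of 41 G2/M and mitosis genes tested, 38 had a negative log2 fold change (median −0.30), 3 fell (7.32%, against 4.2% of all genes tested) and 0 rose. 14 of them were lower in every MEKi library than in any DMSO library (8.05% of all genes tested were). The number that fell was 1 without DMSO M2, 5 without DMSO M6 and 7 without MEKi M3. *Mki67*, a proliferation marker, was at 344, 322, 276 and 288 CPM in DMSO and 188, 229.8, 194 and 192 CPM in MEKi (log2 fold change −0.61, standard error 0.14, edgeR FDR 0.0021). The call of *Mki67* was lost without DMSO M2 (log2 fold change −0.56, edgeR FDR 0.0141). *Top2a*, topoisomerase II, was lower at an edgeR FDR of 0.0136 but below the 1.5-fold limit (log2 fold change −0.34), without overlap. Of 41 G1/S and replication genes 3 fell (7.32%) and 0 rose (median −0.13), and 1 fell without DMSO M2 or DMSO M4. *E2f8*, a repressor of E2F targets, was the one with the largest decrease (log2 fold change −1.09, edgeR FDR 0.00397).

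Of 16 cyclin D and CDK inhibitor genes 3 fell and 1 rose. *Cdkn1c*, which encodes the CDK inhibitor p57, rose from 323, 329, 487 and 389 CPM in DMSO to 756, 638, 654 and 639 CPM in MEKi (log2 fold change 0.82, standard error 0.13, edgeR FDR 1.47e-05), and *Cdk6*, a partner of cyclin D, fell from 66.5, 64.7, 73.7 and 60.2 CPM in DMSO to 46.0, 43.6, 31.0 and 38.1 CPM in MEKi (log2 fold change −0.75, standard error 0.17, edgeR FDR 0.00167), both without overlap. Of 15 BCL2 family genes 1 rose (*Bad*) and 1 fell (6.67% each, against 2.24% and 4.2% of all genes tested). *Bcl2l2*, which encodes the survival protein BCL-W, was at 18.6, 14.4, 18.4 and 13.7 CPM in DMSO and 9.49, 6.50, 6.57 and 8.59 CPM in MEKi (log2 fold change −1.09, standard error 0.29, edgeR FDR 0.00993), and *Bad*, which encodes a protein that opposes it, rose by 0.59 on the log2 scale (edgeR FDR 0.00115). The call of *Bad* was lost without MEKi M2, MEKi M4 or DMSO M2 (log2 fold change 0.55 to 0.58, edgeR FDR 0.00497 to 0.0101).

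Type IV collagen, the main collagen of basement membranes, fell. Of 24 basement membrane genes tested, 5 fell and 1 rose. *Col4a1* was at 586, 628, 581 and 514 CPM in DMSO and 284, 320.4, 296 and 281 CPM in MEKi (log2 fold change −0.97, standard error 0.12, edgeR FDR 3.82e-08), and its partner chain *Col4a2*, which shares the same promoter region, fell by 0.95 on the log2 scale (edgeR FDR 3.69e-09). *Col15a1*, of vascular and muscle basement membranes, was at 68.1, 63.2, 60.7 and 69.2 CPM in DMSO and 13.3, 18.4, 10.0 and 22.0 CPM in MEKi (log2 fold change −2.07, standard error 0.21, edgeR FDR 6.05e-10). *Itga6*, the laminin receptor subunit, was at 291, 331, 329 and 242 CPM in DMSO and 113, 102, 121 and 117 CPM in MEKi (log2 fold change −1.39, standard error 0.15, edgeR FDR 2.26e-09). All 4 genes were lower in every MEKi library than in any DMSO library. *Nid2*, a nidogen, was the member that rose (log2 fold change 0.73, edgeR FDR 0.000606). The call of *Nid2* was lost without MEKi M4 (log2 fold change 0.58, edgeR FDR 0.0122).

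Of 41 fibrillar collagen and matrix genes 7 rose and 5 fell (4 rose without DMSO M5). *Efemp1*, a fibulin of elastic tissue, rose from 23.9, 18.9, 12.4 and 16.6 CPM in DMSO to 54.6, 68.8, 85.5 and 81.6 CPM in MEKi (log2 fold change 1.99, standard error 0.25, edgeR FDR 5.11e-08), and *Fbln5*, another fibulin, by 1.09 (edgeR FDR 5.05e-06). *Lox*, which cross-links collagen and elastin, rose by 0.87 on the log2 scale (edgeR FDR 0.0016). *Col14a1*, a collagen on the surface of fibrils, fell from 131, 139, 131 and 103 CPM in DMSO to 54.1, 41.7, 37.6 and 47.3 CPM in MEKi (log2 fold change −1.5, standard error 0.16, edgeR FDR 1.09e-09). Of 21 proteases and inhibitors 3 fell and 0 rose (1 fell without MEKi M2 or DMSO M4), among them *Serpine2*, the protease nexin gene (log2 fold change −0.86, edgeR FDR 0.000881).

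In the retinoic acid list, 4 of 18 genes tested rose and 1 fell (2 rose without DMSO M2). The gene that fell is *Cyp26b1*, whose product degrades retinoic acid in the foetal testis (log2 fold change −1.5, edgeR FDR 1.68e-06). Those that rose include *Aldh1a2*, given above, and *Stra6*, the retinol transporter (log2 fold change 0.83, edgeR FDR 0.0085). Of 34 WNT pathway genes 4 fell and 2 rose. The number that fell was 2 without MEKi M3, MEKi M4 or DMSO M2, and the number that rose was 1 without DMSO M4 and 4 without DMSO M6. *Wnt6*, a ligand, fell from 86.4, 122, 130.0 and 74.9 CPM in DMSO to 41.8, 50.1, 51.0 and 38.1 CPM in MEKi (log2 fold change −1.17, standard error 0.16, edgeR FDR 7.55e-07), and *Sfrp4*, a secreted WNT antagonist, rose from 22.9, 22.9, 23.9 and 24.2 CPM in DMSO to 71.2, 76.5, 91.1 and 56.4 CPM in MEKi (log2 fold change 1.66, standard error 0.24, edgeR FDR 2.4e-06). Of 34 BMP, activin and TGFB genes 3 rose and 5 fell (3 fell without MEKi M4). *Fstl3*, an activin antagonist, rose by 0.99 on the log2 scale (edgeR FDR 0.00139), *Gdf10* fell by 1.37 on the log2 scale (edgeR FDR 0.00471) and *Tgfbr2*, a TGFB receptor gene, fell by 0.74 on the log2 scale (edgeR FDR 0.00558).

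The cholesterol and ER stress lists gave no call in the main fit, and the glycolysis, interferon and cytokine lists gave some. In the glycolysis list 6.9% rose and 3.45% fell, and in the cytokine list 5.88% rose and 11.8% fell. Of all genes tested, 2.24% rose and 4.2% fell. In the cholesterol and fatty acid list 0 of 28 genes were called by edgeR or DESeq2 (log2 fold changes −0.46 to 0.45, 10 with an unadjusted p under 0.05). In the ER stress and amino acid list 0 of 29 were called by either tool (8 with an unadjusted p under 0.05), and the number that rose was 1 without MEKi M2 or DMSO M4. Of 29 glycolysis and hypoxia genes 2 rose (0 without DMSO M5 or DMSO M6 and 1 without MEKi M2, MEKi M4 or DMSO M2) and 1 fell, *Hk2*, hexokinase 2, from 95.4, 95.5, 106 and 87.2 CPM in DMSO to 53.2, 60.8, 70.8 and 54.3 CPM in MEKi (log2 fold change −0.67, standard error 0.14, edgeR FDR 0.00115). In the interferon list 1 of 25 fell (4.0%, against 4.2% of all genes tested) and 0 rose. The gene that fell is *Isg15*, a ubiquitin-like protein gene (log2 fold change −2.30, edgeR FDR 0.00426). The number that fell was 2 without MEKi M2 or DMSO M6 and the number that rose 1 without MEKi M3, MEKi M5, DMSO M5 or DMSO M6. Of 17 cytokines and chemokines 2 fell (1 without MEKi M3, DMSO M2 or DMSO M4) and 1 rose (0 without MEKi M2, DMSO M2 or DMSO M4), the member with the largest decrease being *Ccl12*, a monocyte attractant (ratio 25.3, 95% counting interval 8.32 to 126).

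Outside the lists, the DEGs with the largest changes, taken from those that averaged 5 CPM or more and did not overlap, included *Lmcd1*, a LIM protein gene of muscle and heart, at 22.6, 15.9, 14.9 and 22.3 CPM in DMSO and 66.4, 63.1, 67.6 and 84.9 CPM in MEKi (log2 fold change 1.88, standard error 0.22, edgeR FDR 2.26e-08). *Hpgd*, which inactivates prostaglandins, was at 33.6, 28.3, 29.4 and 43.1 CPM in DMSO and 78.8, 127, 128 and 92.4 CPM in MEKi (log2 fold change 1.67, standard error 0.19, edgeR FDR 8.62e-09). *Npy1r*, the neuropeptide Y receptor, was at 15.0, 3.98, 11 and 9.47 CPM in DMSO and 30.4, 36.3, 29.7 and 37.6 CPM in MEKi (log2 fold change 1.73, standard error 0.35, edgeR FDR 0.00074). Increases by log2 fold changes of 1.86 and 1.49 were those of the matrix genes *Acan* (aggrecan) and *Thbs4* (thrombospondin 4), of 1.77 that of the zinc finger factor *Zbtb16* and of 1.5 that of the reproductive homeobox gene *Rhox8*. The call of *Rhox8* was lost without MEKi M4 or DMSO M5 (log2 fold change 1.19 to 1.21, edgeR FDR 0.0753 to 0.113). Among the decreases, *Lrp8*, the reelin receptor, was at 35.9, 31.3, 31.4 and 25.6 CPM in DMSO and 2.37, 4.21, 4.70 and 0.537 CPM in MEKi (log2 fold change −3.26, standard error 0.33, edgeR FDR 3.24e-10). *Nrarp*, a Notch-induced gene, was at 11.6, 9.45, 8.47 and 8.05 CPM in DMSO and 1.42, 1.15, 1.25 and 0 CPM in MEKi (log2 fold change −3.16, standard error 0.49, edgeR FDR 7.48e-06). The other genes of this rule, with no role given here, were *Tnfaip6*, *Car10*, *A4galt*, *8030451A03Rik*, *Tpbgl*, *Cldn10*, *Frmd5* and 1 gene with an identifier only among the increases (log2 fold changes 2.00, 1.77, 1.72, 1.67, 1.66, 1.5, 1.47 and 1.55) and *Mmrn2*, *Esam*, *Ecscr*, *Bricd5* and *Vxn* among the decreases (−3.46, −2.99, −2.66, −2.71 and −2.58). Of these, *Mmrn2*, *Esam* and *Ecscr* belong to the pan-endothelial list and *Tnfaip6* to the matrix list. They are already in the counts of those lists above. The call of *Cldn10* was lost without MEKi M2, MEKi M4, DMSO M4 or DMSO M5 (log2 fold change 1.19 to 1.45, edgeR FDR 0.0657 to 0.1), that of *A4galt* without DMSO M2 (log2 fold change 1.52, edgeR FDR 0.0614) and that of *Frmd5* without MEKi M3 (log2 fold change 1.30, edgeR FDR 0.06).

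The 24 h libraries share no sample with those of 72 h and so give the same contrast a second time, although time cannot be told apart from the library set. The 24 h MEKi group has 3 libraries here, and 1 further library that the study's barcode file places in it was left out because the labels do not list it. At 24 h, 373 genes (2.42%) were DEGs, 147 of them higher (0.955%) and 226 lower (1.47%). Of the 647 genes that fell at 72 h, 138 were also called lower at 24 h (21.3%), and of the 345 that rose, 40 were also called higher (11.6%). Together these are 178 genes, 17.9% of the 992 and 47.7% of the 373. The median log2 fold change at 24 h was −0.36 over the genes that fell at 72 h and 0.228 over those that rose.

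Endothelial and ERK feedback genes were called lower at both times. Of the pan-endothelial genes 32 fell at 24 h (median −1.99) and of the ERK feedback genes 10 (median −0.80). *Dusp6* had log2 fold changes of −1.87 at 24 h and −2.16 at 72 h, and *Pdgfrb* of −1.35 and −1.37. The difference between the times was itself tested, and 180 genes passed (1.17%), 63 with a difference above 0 (0.409%) and 117 below 0 (0.76%). *Rasip1*, a RAS-interacting gene of endothelium, fell more at 72 h (−4.51) than at 24 h (−1.67, difference −2.84, edgeR FDR 0.0274). *Cd34* fell at 24 h (−1.75), and its log2 fold change at 72 h was 0.38 (difference 2.13, edgeR FDR 2.34e-05).

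Several Sertoli and Leydig genes differed between the times. At 24 h 0 Leydig genes were called higher and 0 lower (6 of 19 had an unadjusted p under 0.05 by edgeR), and of the Sertoli cell products 0 fell and 2 rose. *Hsd3b1* had a log2 fold change of −0.39 at 24 h (edgeR FDR 0.341), a difference between times of 1.54 (edgeR FDR 0.000505). *Cyp17a1* had a log2 fold change of −0.85 at 24 h, a difference of 2.13 (edgeR FDR 0.000801). *Col9a3* had a log2 fold change of −0.50 at 24 h, a difference of −1.52 (edgeR FDR 0.00545), *Dmrt1* one of 0.82, a difference of −2.09 (edgeR FDR 0.00308), and *Inhbb* one of 0.08, a difference of −1.26 (edgeR FDR 0.015). For *Sox9* the difference did not pass the test (−0.91, edgeR FDR 0.0801). Of the meiotic entry genes 6 were called higher at 24 h and 0 at 72 h. Of the germ cell genes, 3 of 19 were called higher at 24 h and 0 lower (median 0.82, 11 with an unadjusted p under 0.05), and their summed level was 428 to 748 CPM in the 3 MEKi libraries and 215 to 347 CPM in the 4 DMSO libraries of 24 h. The part of germ cells left by the sort in this change was not tested. *Stra8* had a log2 fold change of 4.81 at 24 h, against −0.04 at 72 h (difference −4.85, edgeR FDR 0.000801).

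**Figure D5:**
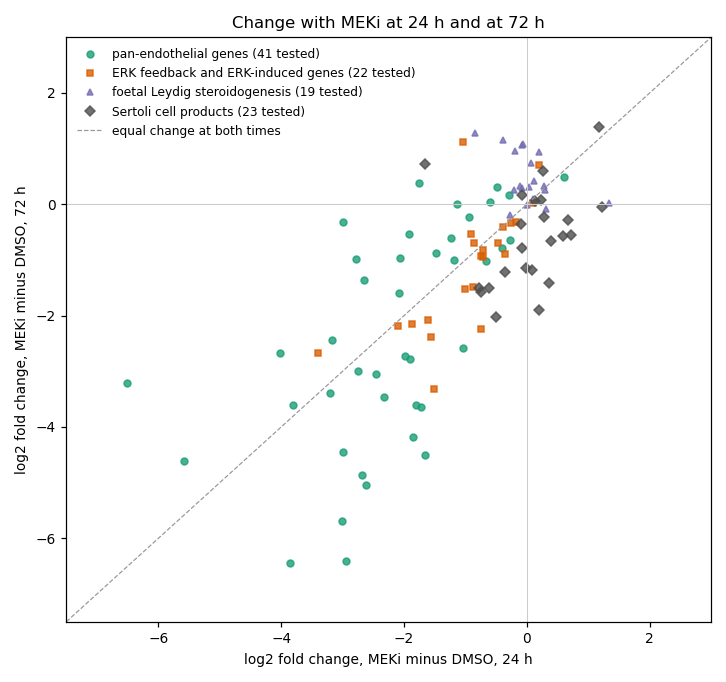
Log2 fold change, MEKi minus DMSO, at 24 h (x axis) and at 72 h (y axis) for the tested members of 4 lists, with a dashed line where both are equal. Pan-endothelial genes have medians of −1.99 and −2.57, ERK feedback genes of −0.80 and −0.92, Leydig genes of 0.0041 and 0.33 and Sertoli cell products of 0.13 and −0.58.

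MEKi was compared directly with FGFRi at 72 h to see which of these values differ between blocking MEK and blocking the FGF receptor. The contrast uses the same MEKi libraries as that with DMSO. There were 981 DEGs (6.37%), 254 higher with MEKi (1.65%) and 727 lower (4.72%). Of the ERK feedback genes 10 were lower with MEKi than with FGFRi, of the pan-endothelial genes 20, of the Sertoli cell products 15 and of the macrophage genes 0 (7 of 24 had an unadjusted p under 0.05 by edgeR). *Spry4* was at a mean of 16.3 ± 6.09 CPM with FGFRi, 1.90 ± 0.514 CPM with MEKi and 19.8 ± 2.19 CPM with DMSO (SD, n = 4), and the direct log2 difference was −3.00 (edgeR FDR 5.59e-08). *Cd93* was at 28.9 ± 16.4, 1.01 ± 0.654 and 34.5 ± 16.3 CPM in the same order, a direct difference of −4.63 (edgeR FDR 1.26e-09). *Sox9* was at 388 ± 73.9, 208 ± 17.3 and 318 ± 57.5 CPM, a direct difference of −0.90 (edgeR FDR 0.000538), and *Col9a3* at 163 ± 46.4, 30.7 ± 4.05 and 127 ± 40.3 CPM, a direct difference of −2.40 (edgeR FDR 2.17e-10).

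For some genes that fell with MEKi the direct difference did not pass the test. *Ccnd1* was at a mean of 39.2 ± 11.3 CPM with FGFRi and 38.3 ± 10.9 CPM with MEKi (direct difference −0.04, standard error 0.29, edgeR FDR 0.959), *Cspg4*, the NG2 proteoglycan gene of pericytes, at 66.2 ± 20.9 and 65.3 ± 8.96 CPM (direct difference −0.01, standard error 0.17, edgeR FDR 0.98) and *Csf1r* at 3.96 ± 3.23 and 4.68 ± 0.28 CPM (direct difference 0.24, standard error 0.50, edgeR FDR 0.825). Against DMSO, FGFRi gave 276 DEGs (1.79%), 137 higher (0.89%) and 139 lower (0.903%), among them 11 macrophage genes lower, 1 pan-endothelial gene lower, 3 ERK feedback genes lower, 0 Sertoli cell products lower and 6 contractile genes higher. Both inhibitors are compared with the same DMSO libraries, so these counts are not independent of those for MEKi. For *Acta2* the mean was 662 ± 112 CPM with FGFRi and 801 ± 36.6 CPM with MEKi (direct difference 0.28, standard error 0.12, edgeR FDR 0.141), and *Ren1* was higher with MEKi, at 38.5 ± 15.1 against 12.4 ± 4.33 CPM (direct difference 1.65, standard error 0.33, edgeR FDR 0.0003).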

How the data were processed

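The study deposited raw molecule counts per gene as 2 tables of somatic cell libraries. Per the labels and the methods, the authors sorted GFP-negative cells, made 3′ RNA-seq libraries with molecular identifiers, aligned reads to GRCm39 and assigned them to GENCODE exons by strand with Rsubread and scPipe, and the deposited counts were not normalised. Counting by molecular identifiers removes most amplification duplicates, and a 3′ assay does not see transcript forms with the same end. Of 40 libraries, 39 have a group in the labels, and 1 column, which the study's barcode file places in the 24 h MEKi group but the labels do not list, was not used here. Gene symbols came from GENCODE M39 for 40391 of 42422 identifiers.

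All 39 libraries (10 group means, no covariate) were fitted with edgeR 4.0.16 in R 4.3.3 (filterByExpr by group, which left 15390 genes, TMM scaling, quasi-likelihood F test, Benjamini-Hochberg adjustment over all genes tested). The contrasts were MEKi minus DMSO at 72 h and at 24 h, the difference between these, MEKi minus FGFRi, FGFRi minus DMSO, and XX minus XY with DMSO. A DEG had an FDR below 0.05 and at least a 1.5-fold change. The scripts were tested on simulated data. The 42 gene lists and the members were chosen with earlier results of these data known. Genes named are the 20 DEGs with the largest change each way of those that averaged 5 CPM or more and did not overlap, markers the study assayed, and list members. A few genes under this rule are not reported here. A gene with 3 counts or fewer over a group has a ratio of counts with an exact 95% interval or, at 0, a bound at 3 counts, which cover counting error only. Pairs of libraries of a group differed by more than sampling noise (chi-square per degree of freedom 2.22 to 3.9 in 12 pairs), so none was counted as a copy. Alternatives were other scalings, filters and sets of libraries, a replicate block, each library left out, DESeq2 1.42.0 and limma 3.58.1.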

Additional observations from a re-analysis of the deposited data

Results flagged for a closer look

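Within a group of 4 libraries, the highest or lowest library lay far from the other 3 (Dixon's test at the 95% level) in 21 of 338 groups of values looked at, and chance alone gives about 1 in 20. Where 3 libraries are at 0, any count in the remaining library is flagged. The chance rate therefore does not apply to *Sox7*, *Islr2*, *Lgr5* and *Tie1* below. DMSO M2 was the highest for *Car10* (10.3 CPM, against 4.98 to 5.47) and *Unc5b* (41.9 CPM, against 35.3 to 35.9). DMSO M4 was the highest for *Ccl12* (20.4 CPM, against 2.84 to 5.65). DMSO M5 was the highest for *Ccnd1* (176 CPM, against 79.1 to 87.2), *Fdx1* (62.2 CPM, against 34.3 to 37.4), *Hsd3b1* (351 CPM, against 239.7 to 255) and *Star* (50.8 CPM, against 28.4 to 31.8). DMSO M6 was the lowest for *Amh* (0.474 CPM, against 4.32 to 4.97), *Dhh* (36.5 CPM, against 59.5 to 61.2), *Gdf10* (7.58 CPM, against 15.9 to 17.3) and *Ndufa4l2* (1.90 CPM, against 5.32 to 5.97). MEKi M2 was the highest for *Cdkn1c* (756 CPM, against 638 to 654) and *Sox7* (0.949 CPM, against 0 in each of the others). MEKi M3 was the highest for *Islr2* (1.53 CPM, against 0 in each of the others) and *Mki67* (229.8 CPM, against 188 to 194). MEKi M4 was the highest for *Cyp17a1* (109 CPM, against 48.9 to 56.5), *Lgr5* (2.82 CPM, against 0 in each of the others) and *Tie1* (0.313 CPM, against 0 in each of the others). MEKi M5 was the lowest for *Aldh1a2* (76.3 CPM, against 101 to 105) and *Etv5* (4.30 CPM, against 9.02 to 9.56). DMSO M2 also had the highest total count of its group, 2905471, against 1999334 to 2100004 in the others. The value of *Etv5* in MEKi M5, of *Dhh* in DMSO M6 and of *Ccnd1* in DMSO M5 are among those the results above describe.

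The effect of MEKi differed between 72 h and 24 h by the edgeR test of the difference for 24 of the 167 genes named. Over all genes tested 180 passed (1.17%). Of the 167, 139 were DEGs at 72 h, and the change at 72 h enters the difference, so the shares cannot be compared. Values are the log2 fold change at 72 h minus that at 24 h, followed by the log2 fold changes at 24 h and at 72 h. The difference was above 0 for *Npy1r* (3.53, from −1.80 to 1.73), *Cd34* (2.13, from −1.75 to 0.38), *Cyp17a1* (2.13, from −0.85 to 1.28), *8030451A03Rik* (2.02, from −0.35 to 1.67), *Lmcd1* (1.91, from −0.03 to 1.88), *Ren1* (1.86, from 1.03 to 2.89), *Hsd3b1* (1.54, from −0.39 to 1.15), *Hpgd* (1.36, from 0.31 to 1.67), *Angpt2* (1.27, from −0.24 to 1.03), *Vcam1* (1.15, from −0.20 to 0.96), *Nid2* (1.07, from −0.34 to 0.73) and *Acta2* (0.73, from 0.27 to 1.0). It was below 0 for *Stra8* (−4.85, from 4.81 to −0.04), *Rasip1* (−2.84, from −1.67 to −4.51), *Dmrt1* (−2.09, from 0.82 to −1.27), *Col9a3* (−1.52, from −0.50 to −2.02), *Col15a1* (−1.46, from −0.61 to −2.07), *Itga6* (−1.28, from −0.11 to −1.39), *Inhbb* (−1.26, from 0.08 to −1.18), *Wnt6* (−1.21, from 0.04 to −1.17), *Cdk6* (−0.96, from 0.21 to −0.75), *Hk2* (−0.84, from 0.16 to −0.67), *Wt1* (−0.60, from 0.33 to −0.27) and *Col4a2* (−0.60, from −0.35 to −0.95). The 24 h libraries are from library set 3 and those of 72 h from set 4, so time and set cannot be told apart.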

How the results depend on the processing

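The count of 992 DEGs depended most on whether 1.5-fold enters the test itself: edgeR's glmTreat against 1.5-fold called 136 (23 higher) and voom with quality weights and treat 78 (14 higher), while the other fits with all 4 libraries a group called 910 to 1035 (the lowest with the replicate block, the highest with DESeq2). The paper's methods name voom with quality weights and treat. With glmTreat and voom, in that order, 1 and 0 Leydig genes, 0 and 0 coelomic epithelium genes and 1 and 1 smooth muscle contractile genes rose. The number that fell was 5 and 0 for macrophage genes and 1 and 0 for immediate-early genes. It was 18 and 14 for pan-endothelial genes and 8 and 4 for ERK feedback genes. With 1 library left out the count was 698 (without DMSO M2) to 981 (without DMSO M6). Without the low-count filter the count of genes that differ between 72 h and 24 h was 336, against 180, and the cause was not tested. For MEKi against DMSO at 24 h, MEKi against FGFRi and XX against XY, counts under other scalings and no filter (chosen after seeing the data) stayed within 1.5 times. Scaling by total counts moved the median of all genes by −0.037 on the log2 scale. Of 167 genes named, 139 were DEGs, and the number called was 66 with glmTreat, 50 with voom, 137 with DESeq2 and 127 to 140 with 1 library left out. No gene named that was called changed its direction under any fit run.

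The labels give replicate numbers that MEKi and DMSO libraries share for M2, M4 and M5, but same-numbered libraries did not deviate together (correlation of deviations from the group means over 15390 genes −0.068, 0.090 and −0.057), so the numbers were not taken as pairs. With the replicate block, fitted on the 12 XY libraries of 72 h, 910 genes were called, against 940 without it. The number that fell went from 4 to 9 for G2/M and mitosis genes, from 0 to 4 for erythroid genes, from 2 to 4 for growth factor ligands, from 7 to 4 for arterial genes and from 9 to 5 for immediate-early genes. Of the genes named, *Amh*, *Dusp7*, *Egr1*, *Rhox8* and *Srf* lost their call with the block, *Amh*, *Erbb3* and *Srf* with a filter of 1 CPM, *Hba-a2* and *Sox9* with DESeq2, and *Bad* and *Sostdc1* with total counts. *Bad* and *Sostdc1* also lost it with only the 16 libraries of 72 h, the 12 XY libraries of 72 h or the 8 libraries compared. *Hba-a2* also lost it in the fits of 16 and 12 libraries, *Srf* in that of 16 and *Amh* without the low-count filter. Totals of 1902066 to 3167747 counts limit what can be said of genes under about 5 CPM, such as *Amh*, *Etv4* and *Tek*.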
